A study of Mus musculus with 16 samples.

Results

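The comparison described here sets mouse pre-B cells stimulated for 5 h against the same cells stimulated for 0.5 h, directly and without the unstimulated control as a reference. Its members are 8 of the 16 samples of the series, which are 2 of its 4 RNA-seq libraries, since the 4 samples of each time are 4 sequencing lanes of 1 library with 1 index. The members were chosen by their labelled time alone. All libraries came from pre-B cells of Blnk-/- knockout mice that carried BLNK-ERt2, a BLNK protein fused to a tamoxifen-responsive domain and delivered by retrovirus, and they differed in time: control, 0.5 h, 1.5 h and 5 h of stimulation. The control carried the construct and the deletion too. The labels do not give the inducer's dose, the age or sex of the mice, whether the cells were a clone, or an untreated library for each time. They name a pair of library kits without saying which sample had which, so a kit difference cannot be told apart from time here. With 1 library a side there is no spread between cultures and no test: every difference below compares these libraries, and each interval covers counting error only.

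The pre-B cell receptor is made of an immunoglobulin heavy chain, a surrogate light chain and the signalling chains Cd79a and Cd79b. When it signals, the kinase Syk phosphorylates the adaptor BLNK, which gathers phospholipase C and Btk and so feeds calcium, NFAT, NF-kB and MAP kinase pathways. In mice BLNK is needed for pre-B cells to stop dividing and to rearrange their light chain genes, and without it pre-B cells accumulate. Genes that answer such a signal without new protein synthesis, called immediate early genes, are transcribed within minutes and usually have short-lived mRNAs.

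Each deposited table counts reads per gene. Summed over lanes, the 0.5 h library held 33864004 exon reads (8414334 to 8535084 a lane) and the 5 h library 30746189 (7631791 to 7748181 a lane), so that 3 reads, the most that a count of 0 allows, equal 0.0886 and 0.0976 CPM (counts per 1000000 exon reads). Of these reads 84.4% and 84.6% were uniquely placed. Lanes of 1 library differed slightly more than counting error in total reads (chi-square per degree of freedom 1.30 and 1.24) and not beyond it in unique reads (0.996 and 0.992). Blnk, which these cells can make from the construct, was at 3806 CPM at 0.5 h and 3533 CPM at 5 h, and Esr1, whose hormone-binding part is in the fusion, at 108 and 106 CPM. The pre-B markers Ighm, Cd79a, Vpreb1 and Igll1 were above 1200 CPM in both libraries. In such bulk samples, fewer cells of a type and less RNA per cell cannot be told apart.

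More genes were lower than higher at 5 h: Egr1, Nr4a1, Nlrp3 and Tgfb3 had the lowest log2 ratios, and Ephx1 and Pdcd1 the highest. Genes were called where the ratio of the CPM values, each raised by 1 CPM, was 2-fold or more and the higher library reached 5 CPM. Of 9526 genes that reached this level, 62 were called lower at 5 h (0.651% of those tested) and 17 higher (0.178%). For all 79 the lanes of the 2 libraries did not overlap and the interval of the ratio left out 1. At this depth that is common: the lanes did not overlap for 53.3% of the tested genes, and the interval left out 1 for 66.5%. The measured genes were the 11024 that reached 1 CPM in 1 of the libraries or in both. Their median log2 ratio of 5 h over 0.5 h was -0.0096, and 51.6% were below 0. The shares of 51.6% below 0, 0.651% called lower and 0.178% called higher are the background for the list counts below. The middle of the tested genes was narrow, with a log2 ratio of -0.36 at the 10th percentile and 0.30 at the 90th. The genes just inside the rule were Klf10 (-1.005) and Fam222a (-1.01) among the lower and Tnfrsf19 and Slc1a5 (both 1.01) among the higher, and those just outside were Traf4 and Pim3 (both -0.99) and Zfp866 (0.99).

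**Figure D1:**
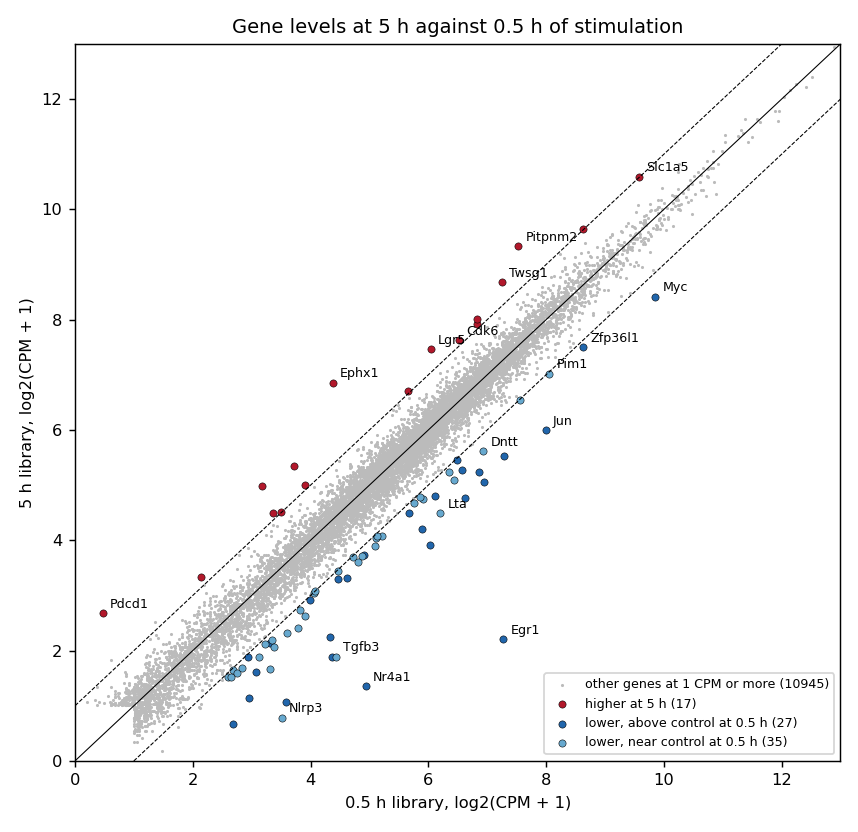
Each point is a gene, with its level in the 0.5 h library on the x axis and in the 5 h library on the y axis, both as log2(CPM + 1); dashed lines mark a 2-fold difference. The 17 higher genes lie above the upper line and the 62 lower ones below the lower line, with Egr1 farthest from the diagonal.

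The control and 1.5 h libraries, which the calls did not use, divide the 62 lower genes into groups. At 0.5 h, 27 were above control by at least 1.5-fold (after adding 1 CPM) and 35 were within 1.5-fold of it. Of the 27, 23 were back within 1.5-fold of control at 5 h, Egr1 and Egr3 were still above it, and Nr4a1 and Tnf were below it. Of the 35, 33 were below control at 5 h, and Midn and Zc3h12a were within 1.5-fold of it. That split follows largely from the rules. A gene near control at 0.5 h and called lower had to lie under its control level at 5 h. Summed over its genes, the first group went from 924 CPM in control to 2843 at 0.5 h, 1748 at 1.5 h and 943 at 5 h, and the second from 1317 to 1403, 980 and 605 CPM.

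**Figure D2:**
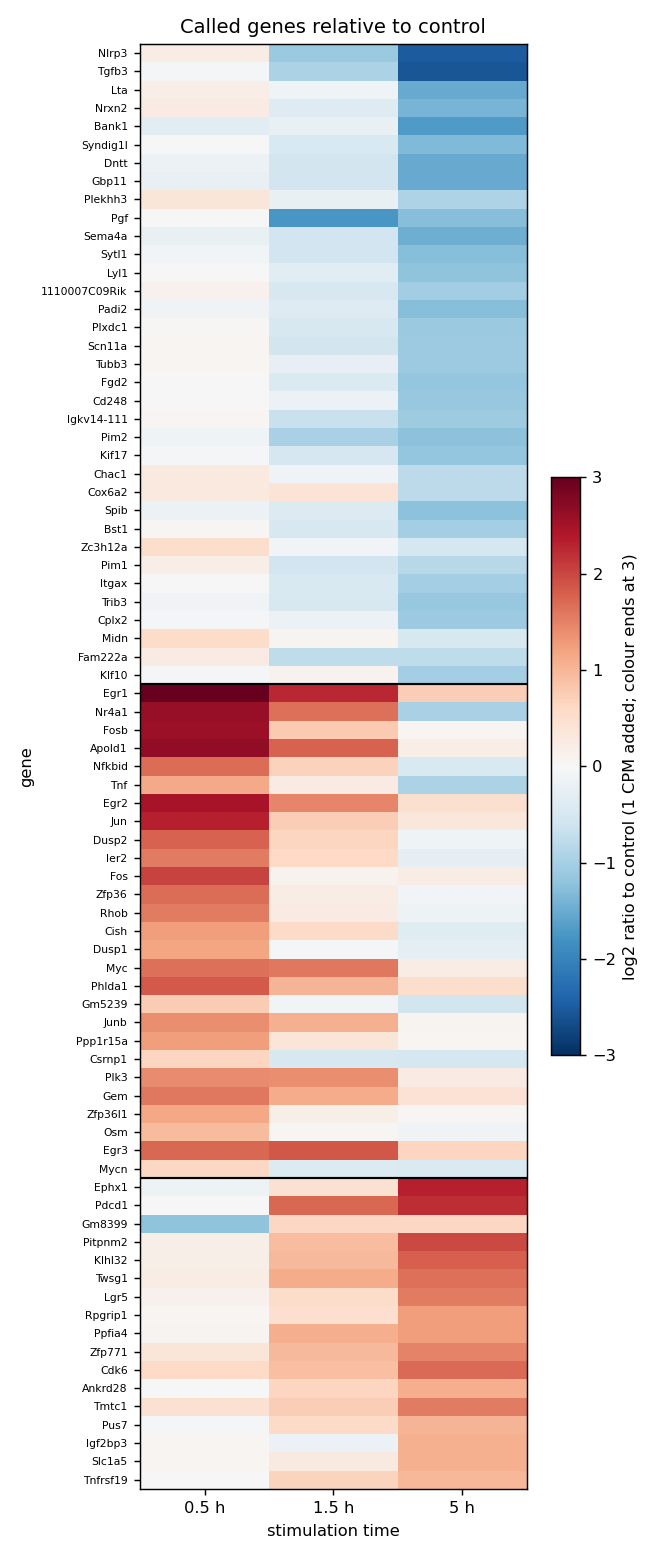
Rows are the 79 called genes and columns the 3 stimulated libraries; colour gives the log2 ratio to control after adding 1 CPM, with red above and blue below, and black lines part the 35 lower genes near control at 0.5 h, the 27 lower genes above control at 0.5 h and the 17 higher genes. The middle block is red at 0.5 h and pale at 5 h, while the top block is pale at 0.5 h and blue at 5 h. The 0.5 h colours define the 2 lower blocks, and the blue of the top block at 5 h follows largely from the call rule.

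The 2 largest drops were of immediate early transcription factors. Egr1 (chromosome 18, 34859823 to 34864984, mm10), a zinc finger factor induced by MAP kinase signalling, stood at 155, 153, 152 and 153 CPM in the lanes at 0.5 h and at 3.90, 3.28, 4.44 and 2.84 CPM in the lanes at 5 h. It was 42.5-fold lower at 5 h (95% interval 35.2 to 51.7), and most of the distance had been covered at 1.5 h, when it was at 12.3 CPM. Nr4a1 (chromosome 15, 101266846 to 101274792), an orphan nuclear receptor used as a reporter of antigen receptor signalling, had 27.4, 29.4, 32.2 and 29.3 CPM in the lanes at 0.5 h and 1.43, 1.97, 2.09 and 0.774 CPM at 5 h. That is 18.9-fold lower (14.2 to 25.9), and the 5 h level of 1.56 CPM was also below the control level of 3.996 CPM. Every lane at 0.5 h was above every lane at 5 h for both genes.

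AP-1 subunits, which pair as Fos and Jun proteins on DNA, fell with them. Fosb went from 10.96 to 1.11 CPM, 9.91-fold lower (6.96 to 14.5), and Fos from 6.79 to 1.203 CPM, 5.64-fold lower (3.98 to 8.22). Jun (chromosome 4, 95049034 to 95052222) had 248, 255, 254 and 257 CPM in the lanes at 0.5 h against 64.4, 62.8, 62.1 and 62.3 CPM at 5 h, 4.03-fold lower (3.84 to 4.24). Junb went from 94.4 to 37.5 CPM, 2.52-fold lower (2.35 to 2.69). At 5 h these subunits were within 1.5-fold of control, in which Jun was at 49.8 and Junb at 35.5 CPM.

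Other members of the class showed the same direction. Egr2 went from 5.40 to 0.585 CPM, 9.23-fold lower (5.68 to 15.9), and Apold1, an early response gene, from 19.5 to 2.70 CPM, 7.24-fold lower (5.76 to 9.21). Ier2 went from 97.0 to 26.1 CPM, 3.71-fold lower (3.43 to 4.01). Rhob, a small GTPase gene with 1 exon that is in none of the lists, went from 58.5 to 17.3 CPM, 3.38-fold lower (3.07 to 3.72), from 19.3 CPM in control. Egr3 differed in its course: it was at 6.67 CPM at 0.5 h, 7.45 CPM at 1.5 h and 2.67 CPM at 5 h, and its call was lost when lane 2 was left out (log2 ratio -1.07 with all lanes, -0.99 without it). In the whole immediate early list 28 of 34 genes were measured, 27 of them were below 0 and 12 were called lower. Over all genes 51.6% of those measured were below 0 and 0.651% of those tested were called lower. The median log2 ratio of the list was -0.90, against -0.0096 over all measured genes. The called members include Csrnp1, with 10.9% of reads uniquely placed, and Klf10, whose call was lost when lane 1 (-0.87) or lane 3 (-0.98) was left out. Btg2, an antiproliferative gene of the list, was at 234 and 228 CPM, and Nr4a2, a relative of Nr4a1, at 8.92 and 8.20 CPM.

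Promoter stretches are shown for some of the lower genes that were above control at 0.5 h. They were chosen among genes with the marked motif before the start and cut to its matches. Its presence in them was therefore fixed in advance. The motif marked in them belongs to the cAMP response element, which CREB-family factors bind. No binding was measured here. RefSeq windows on GRCm38.p6, from 250 bases before to 50 after a start, matched 19 of the 27 genes. TGACG, the core of that element, was searched on both strands and includes every match of the whole element TGACGTCA. In the following stretches, written in the gene's direction and ending before the start, capitals mark TGACG or its reverse complement CGTCA, overlapping matches merged:
Nr4a1, chr15:101266601-101266822, + strand: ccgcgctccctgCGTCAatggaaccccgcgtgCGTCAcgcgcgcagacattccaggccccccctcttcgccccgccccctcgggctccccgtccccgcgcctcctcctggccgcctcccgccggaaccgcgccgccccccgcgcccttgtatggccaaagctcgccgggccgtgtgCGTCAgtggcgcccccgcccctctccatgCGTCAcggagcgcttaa
Fos, chr12:85473749-85473840, + strand: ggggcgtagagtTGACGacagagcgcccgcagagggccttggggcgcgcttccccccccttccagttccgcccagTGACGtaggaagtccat
Fosb, chr7:19310089-19310117, - strand: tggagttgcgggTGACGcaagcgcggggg
Junb, chr8:84978838-84978866, - strand: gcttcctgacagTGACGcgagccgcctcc
Dusp1, chr17:26508596-26508675, - strand: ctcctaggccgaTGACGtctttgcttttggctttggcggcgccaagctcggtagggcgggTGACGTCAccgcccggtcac
Ppp1r15a, chr7:45526269-45526292, - strand: ccgcctctccggTGACGTCAgcac
Plk3, chr4:117134010-117134107, - strand: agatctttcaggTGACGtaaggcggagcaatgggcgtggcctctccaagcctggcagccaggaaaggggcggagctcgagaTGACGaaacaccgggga

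The Nr4a1 stretch holds 4 matches, Dusp1 3, Fos and Plk3 2 each, Ppp1r15a 2 that form 1 whole element, and Fosb and Junb 1 each. Over the 28 windows of the 19 matched genes, 64.3% (18 windows, 13 genes) held TGACG, against 28.1% of 32 windows of the 24 matched lower genes near control at 0.5 h, 16.7% of 18 windows of the 14 matched higher genes, and 20.8% of all 32851 windows. The share was also high in lists that lay higher at 5 h, with 57.1% of 21 windows of nucleotide and polyamine synthesis and 41.2% of 34 of ribosome biogenesis. It stood in 34.8% of 23 windows of sterol synthesis. These promoters were richer in G and C than the table: the median was 60.0% in both lower groups and 62.5% in the higher genes against 52.7% over all windows. Among the 8072 windows of the table with 56.7% to 67.3% G and C, the middle range of the 19 genes, 30.5% held TGACG. The whole element stood in 10.7% of the 28 windows (Dusp1, Nfkbid and Ppp1r15a) against 1.79% of all. The CArG box, which serum response factor binds, stood in 17.9% (5 windows, of Egr2 and Zfp36) against 1.63% of all. By gene it stood in 2 of the 19 against 488 of 27025. The AP-1 site TGACTCA was at 3.57% against 5.20%. A match describes these letters only, and several windows of 1 gene overlap. Egr1, Egr3, Gem, Gm5239, Ier2, Myc, Osm and Phlda1 had no entry.

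Feedback genes of the MAP kinase and NF-kB pathways were among the lower genes. Dusp2, a phosphatase of MAP kinases, went from 122 to 32.3 CPM, 3.79-fold lower (3.53 to 4.06), and Dusp1, of the same family, from 7.41 to 2.05 CPM, 3.62-fold lower (2.73 to 4.85). In that list 15 of 16 genes were measured, 12 were below 0, 2 were called lower and the median was -0.54. Over all genes 51.6% of those measured were below 0 and 0.651% of those tested were called lower. Dusp6, a phosphatase specific for ERK, did not reach the rule at 1.74-fold lower (1.63 to 1.85), and Spry2, an inhibitor of receptor signalling to Ras, was 1.78-fold lower (1.59 to 2.003). Spred1, another inhibitor, was 1.18-fold higher (1.14 to 1.23).

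Nfkbid, whose product modulates NF-kB in the nucleus, had 63.2, 59.9, 64.0 and 70.1 CPM in the lanes at 0.5 h and 15.5, 15.6, 12.4 and 12.5 CPM at 5 h, 4.60-fold lower (4.14 to 5.11). Tnf, a cytokine of inflammation, went from 19.2 to 3.74 CPM, 5.12-fold lower (4.20 to 6.30), below its control level of 8.11 CPM. Its neighbour Lta (chromosome 17, 35203165 to 35205351), for lymphotoxin alpha, went from 72.6 to 21.4 CPM, 3.39-fold lower (3.11 to 3.70). Lta was unlike Tnf in that 0.5 h (72.6 CPM) was close to control (62.7 CPM). Nfkbia, the main cytoplasmic inhibitor of NF-kB, was 1.53-fold lower (1.42 to 1.64), and the subunit gene Nfkb1 1.05-fold lower (1.02 to 1.09). Over all genes 51.6% of those measured were below 0 and 0.651% of those tested were called lower. Of the 18 measured NF-kB and NFAT targets 17 were below 0, with a median of -0.36 and 2 called. Among 13 measured secreted signals 12 were below 0 and 4 were called, with a median of -0.55. Ccl3, a chemokine, was 2.20-fold lower (1.77 to 2.76) but at a log2 ratio of -0.97 after adding 1 CPM, outside the rule.

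Of 11 measured regulators of mRNA decay 3 were called lower, 5 were above 0 and the median was -0.04. Of all tested genes 0.651% were called lower. Zfp36, which binds AU-rich elements and recruits deadenylases, was at 155 CPM at 0.5 h, 55.4 CPM at 1.5 h and 44.9 CPM at 5 h, 3.44-fold lower (3.24 to 3.66), and at 47.6 CPM in control. Its relative Zfp36l1 went from 396 to 181 CPM, 2.20-fold lower (2.13 to 2.27). Only 5.56% of the reads of Zfp36l1 were unique, and these alone gave 1.90-fold (1.67 to 2.17), at a log2 ratio of -0.88, which ends the call. Zfp36l2, the other relative, was 1.88-fold lower (1.83 to 1.93). Zc3h12a, an endonuclease of inflammatory mRNAs that was within 1.5-fold of control at 0.5 h, was 2.14-fold lower (1.92 to 2.39), and its log2 ratio of -1.05 became -0.9986 without lane 4.

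Myc, a transcription factor of growth, had its own timing. It was at 910, 939, 907 and 935 CPM in the lanes at 0.5 h and at 336, 351, 345 and 330 CPM at 5 h, 2.71-fold lower (2.65 to 2.77). At 1.5 h it was still at 875 CPM, so that nearly all of the drop came between 1.5 h and 5 h, and the 5 h level of 341 CPM was near control (293 CPM). Plk3, a stress-responsive kinase, had the same course at lower counts, with 8.92 CPM at 0.5 h, 8.73 CPM at 1.5 h and 3.38 CPM at 5 h. Mycn, a relative of Myc, was lower already at 1.5 h: 88.9 CPM at 0.5 h, 42.8 CPM at 1.5 h and 42.7 CPM at 5 h, 2.08-fold lower (1.95 to 2.22). Among the partners, Mxd3 was 1.76-fold lower (1.55 to 2.01), and Max, the dimer partner, 1.16-fold higher (1.11 to 1.202). Over the 27 genes above control at 0.5 h the median gene had covered 62.5% of its log2 distance to the 5 h level at 1.5 h, and 17 were past the midpoint. Over the 35 near control at 0.5 h the median was 37.4% and 8 were past it.

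**Figure D3:**
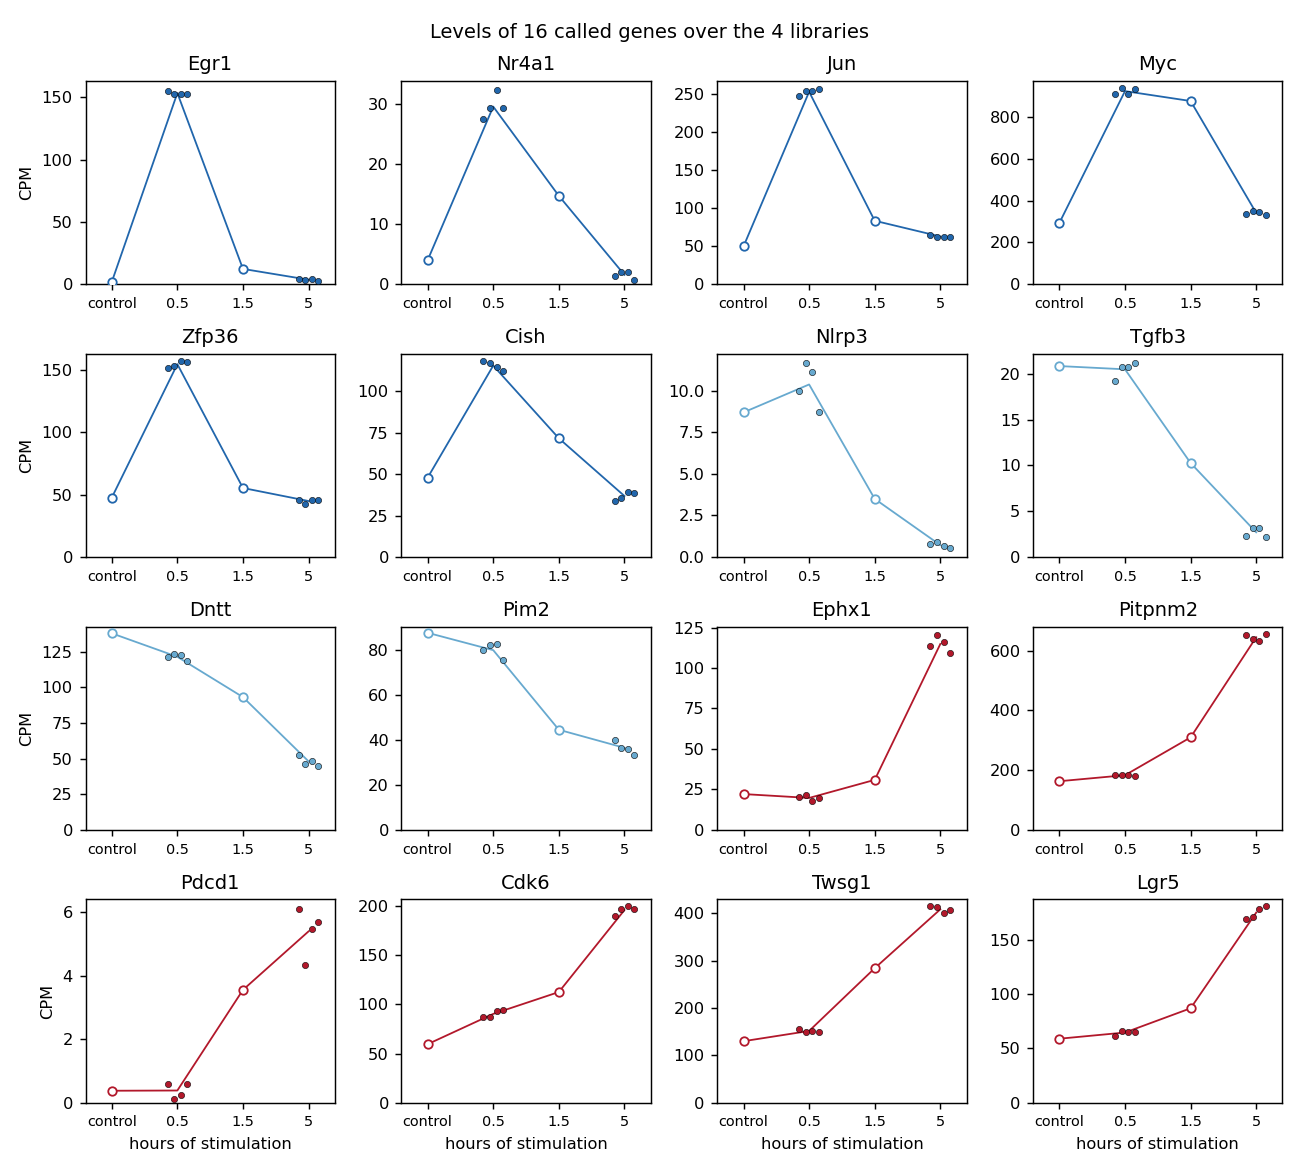
Each panel plots 1 gene in CPM (y axis, from 0) over control and 0.5, 1.5 and 5 h of stimulation (x axis, not to scale in time); filled points are the 4 lanes of the 0.5 h and 5 h libraries, open points the control and 1.5 h libraries, and lines join the library levels. Egr1, Jun and Zfp36 are near their 5 h level at 1.5 h, Myc is not, and the lanes of the 2 times lie apart in each panel.

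Among the 35 lower genes within 1.5-fold of control at 0.5 h, Nlrp3 and Tgfb3 had the largest ratios. Nlrp3 (chromosome 11, 59541568 to 59566956), an inflammasome sensor, had 9.96, 11.6, 11.1 and 8.73 CPM in the lanes at 0.5 h and 0.779, 0.917, 0.652 and 0.516 CPM at 5 h, 14.5-fold lower (9.42 to 23.4). Tgfb3 (chromosome 12, 86056744 to 86079041), a ligand of the TGF-beta family, had 19.2, 20.8, 20.7 and 21.2 CPM against 2.34, 3.14, 3.13 and 2.19 CPM, 7.59-fold lower (6.04 to 9.65). Both declined through 1.5 h, when Nlrp3 was at 3.49 and Tgfb3 at 10.3 CPM. Bank1, a scaffold of B cell receptor signalling, went from 12.8 to 4.29 CPM, 2.97-fold lower (2.44 to 3.64), with 13.7 CPM at 1.5 h. Nrxn2, a neurexin, went from 8.95 to 2.18 CPM, 4.11-fold lower (3.14 to 5.43). Pgf, a VEGF-family growth factor, was lowest at 1.5 h (2.57 CPM), with 11.1 CPM at 0.5 h and 3.97 CPM at 5 h.

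Dntt and Bst1, genes of the earlier, pro-B stage, were in this group. Dntt (chromosome 19, 41029275 to 41059523), which encodes terminal transferase, the enzyme of N-nucleotide addition in heavy chain joining, had 121, 123, 122 and 119 CPM in the lanes at 0.5 h and 52.5, 46.3, 48.5 and 44.9 CPM at 5 h, 2.53-fold lower (2.38 to 2.68). Bst1, an ectoenzyme of early B cells, was 2.16-fold lower (1.94 to 2.41), and its log2 ratio of -1.06 became -0.99 without lane 2. These were the 2 called of 10 measured pro-B markers, whose median was -0.14. Of the 10, 6 were below 0 and 4 above, and over members with at least 5 CPM the median was -0.02. Over all genes 51.6% of those measured were below 0 and 0.651% of those tested were called lower. Erg, an Ets-family factor, was 1.88-fold lower (1.82 to 1.94), and Il7r, the receptor of IL-7, 1.08-fold higher (1.02 to 1.13). Outside the pro-B list, Spib, an Ets-family factor, went from 56.9 to 26.5 CPM, 2.15-fold lower (1.98 to 2.33). Lyl1, a helix-loop-helix factor that is also outside that list, was 2.38-fold lower (2.13 to 2.67). Unique reads, 19.1% of the total for Lyl1, end that call at a log2 ratio of -0.84.

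Targets of IL-7 and STAT5, the cytokine pathway that keeps pro-B and pre-B cells dividing, held 6 of the lower calls among 22 measured genes. Of all tested genes 0.651% were called lower. Cish, a feedback inhibitor of STAT5, had 118, 117, 114 and 112 CPM in the lanes at 0.5 h and 34.0, 35.8, 39.1 and 38.3 CPM at 5 h, 3.14-fold lower (2.93 to 3.35). In unique reads, 39.0% of the total, it was 2.80-fold lower (2.53 to 3.11). Pim1 and Pim2, survival kinases, were 2.06-fold (1.98 to 2.13) and 2.19-fold lower (2.04 to 2.35). Osm, a cytokine gene and STAT5 target, was 2.27-fold lower (1.93 to 2.69), with a log2 ratio of -1.07 that became -0.93 without lane 3. Myc and Mycn were the other two. The list median was -0.62 with 17 below 0 (77.3%, against 51.6% of all measured genes), and -0.37 with 5 CPM added in place of 1. Bcl2l1, which encodes the survival protein BCL-XL, was just outside the rule at 1.99-fold lower (1.87 to 2.13), while Ccnd2 was 1.09-fold higher (1.04 to 1.15). Myc, Mycn, Cish and Osm were above control at 0.5 h and within 1.5-fold of it at 5 h. Pim1 and Pim2 were within 1.5-fold of control at 0.5 h and below it at 5 h. At 0.5 h Pim2 was at 80.1 CPM against 87.9 in control, and Bcl2l1 at 87.1 against 95.5.

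Of the 17 higher genes 15 were within 1.5-fold of control at 0.5 h and above it at 5 h, and Cdk6 was above control at both times. For a gene near control at 0.5 h and called higher, a 5 h level over control follows from the rules. At 1.5 h the median gene was 49.7% of the way, 8 were past the midpoint, and 15 were between their 0.5 h and 5 h levels. Ephx1 (chromosome 1, 180976155 to 181020904), a microsomal epoxide hydrolase, had 20.04, 21.4, 17.9 and 19.6 CPM in the lanes at 0.5 h and 114, 120, 116 and 110 CPM at 5 h, 5.82-fold higher (5.36 to 6.33), with 30.9 CPM at 1.5 h. Pitpnm2 (chromosome 5, 124118690 to 124249760), a phosphatidylinositol transfer protein, had 183, 185, 183 and 181 CPM against 652, 641, 632 and 656 CPM, 3.52-fold higher (3.42 to 3.63). It was the 1 gene called among 23 measured phosphoinositide enzymes, whose median was -0.12 with 17 below 0. Over all genes 51.6% of those measured were below 0 and 0.178% of those tested were called higher. Pitpnm1, a relative of Pitpnm2, had a log2 ratio of -0.57.

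Receptors and secreted modulators were among the higher genes. Pdcd1 (chromosome 1, 94038307 to 94052553), the inhibitory receptor PD-1, had 0.586, 0.119, 0.237 and 0.590 CPM in the lanes at 0.5 h and 6.10, 4.32, 5.48 and 5.68 CPM at 5 h, 14.1-fold higher (8.002 to 27.0). Its level was low, and with 5 CPM added the log2 ratio of 2.21 became 0.95. Twsg1, a secreted modulator of BMP signalling, had 155, 149, 152 and 150 CPM against 415, 413, 400 and 406 CPM, 2.70-fold higher (2.61 to 2.79). Lgr5, a receptor that strengthens Wnt signalling, had 62.0, 65.8, 65.7 and 65.5 CPM against 170, 171, 179 and 181 CPM, 2.71-fold higher (2.58 to 2.85). Tnfrsf19, a TNF receptor family member, was 2.02-fold higher (1.98 to 2.06), with a log2 ratio of 1.01 that became 0.9998 without lane 2. In the Wnt list 13 genes were measured, Lgr5 was the 1 called, Lef1 was 1.66-fold higher (1.63 to 1.70) and the median was -0.01. In the list of TGF-beta and BMP genes Tgfb3 and Twsg1, which lay in opposite directions, were the 2 called of 19, and the median was -0.05. Of all tested genes 0.651% were called lower and 0.178% higher.

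Growth and RNA genes made up others. Cdk6 (chromosome 5, 3343893 to 3523218), the catalytic partner of D-type cyclins, had 86.9, 87.2, 93.1 and 94.4 CPM in the lanes at 0.5 h and 190, 197, 200 and 197 CPM at 5 h, 2.17-fold higher (2.08 to 2.27), from 59.6 CPM in control. Slc1a5, a glutamine transporter, went from 765 to 1547 CPM, 2.02-fold higher (1.99 to 2.05), most of it after 1.5 h (889 CPM). Pus7, a pseudouridine synthase, was 2.10-fold higher (1.98 to 2.23). Igf2bp3, an RNA-binding protein of fetal B lymphopoiesis, was 2.13-fold higher (1.87 to 2.43), and its call (log2 ratio 1.02) was lost when lane 1 (0.94) or lane 4 (0.98) was left out. The rest of the 17 were Klhl32, Rpgrip1, Ppfia4, Zfp771, Ankrd28 and Tmtc1, at 2.16-fold to 3.28-fold higher, and the predicted gene Gm8399, which had 0 unique reads. In unique reads 15 of the 17 higher and 54 of the 62 lower genes were called.

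The groups differed in gene structure. The median number of annotated exons was 5 in the 27 lower genes above control at 0.5 h, 9 in the 35 lower genes near control, 20 in the 17 higher genes and 16 over the 9526 tested genes. The corresponding medians of summed exon length were 2474, 2840, 4777 and 3811.5 bases. These are values of the annotation in the deposited tables, and no test was made of them.

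Reads counted to a gene but outside its exons, which include reads from introns of unspliced RNA, give another readout of the same libraries. Their share of gene reads was 15.8% at 0.5 h and 17.2% at 5 h, and over 8700 tested genes with at least 50 such reads the median log2 ratio was 0.17. Log2 ratios of reads outside exons, and those of exon reads set beside them, had no CPM added. Of the 39 lower genes with enough such reads 38 had a ratio below 0, with a median of -0.93 against -1.34 in exon reads. The 14 that had been above control at 0.5 h had a median of -1.88 outside exons and -1.42 in exons, and 8 of them were further down outside exons. The 25 that had been near control had a median of -0.74 outside exons and -1.27 in exons, and 4 were further down outside exons.

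Single genes show this contrast. For Myc the reads outside exons numbered 558 in control, 2336 at 0.5 h, 1380 at 1.5 h and 587 at 5 h, 3.61-fold lower at 5 h per exon read of the library (3.30 to 3.96). At 1.5 h exon reads had covered 0.053 of the log2 distance to 5 h, at 875 against 923 CPM. For Egr3 they numbered 61 at 0.5 h, 10 at 1.5 h and 2 at 5 h, while its exon level at 1.5 h was as high as at 0.5 h. Plk3 had 49, 25 and 6 such reads. Dntt, in contrast, had 995 at 0.5 h, 513 at 1.5 h and 748 at 5 h, 1.21-fold lower at 5 h (1.10 to 1.33) against 2.53-fold in exon reads. For Bst1 178 were counted in both libraries, and Fam222a, near the limit of the rule and lost without lanes 2, 3 or 4 (log2 ratios of -0.95, -0.99 and -0.998), had 669 and 578.

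Of the 15 higher genes with enough reads outside exons 14 had ratios above 0, with a median of 0.84 against 1.1995 in exon reads. Pitpnm2 went from 1840 to 6043 such reads, 3.62-fold higher (3.43 to 3.81), close to its exon ratio. Ephx1 had 83 at 0.5 h, 329 at 1.5 h and 234 at 5 h, so that the 1.5 h count was the highest while its exon reads were highest at 5 h. Twsg1 was the exception, with 375 at 0.5 h, 375 at 1.5 h and 313 at 5 h beside its 2.70-fold higher exon reads, and with 137 in control.

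**Figure D4:**
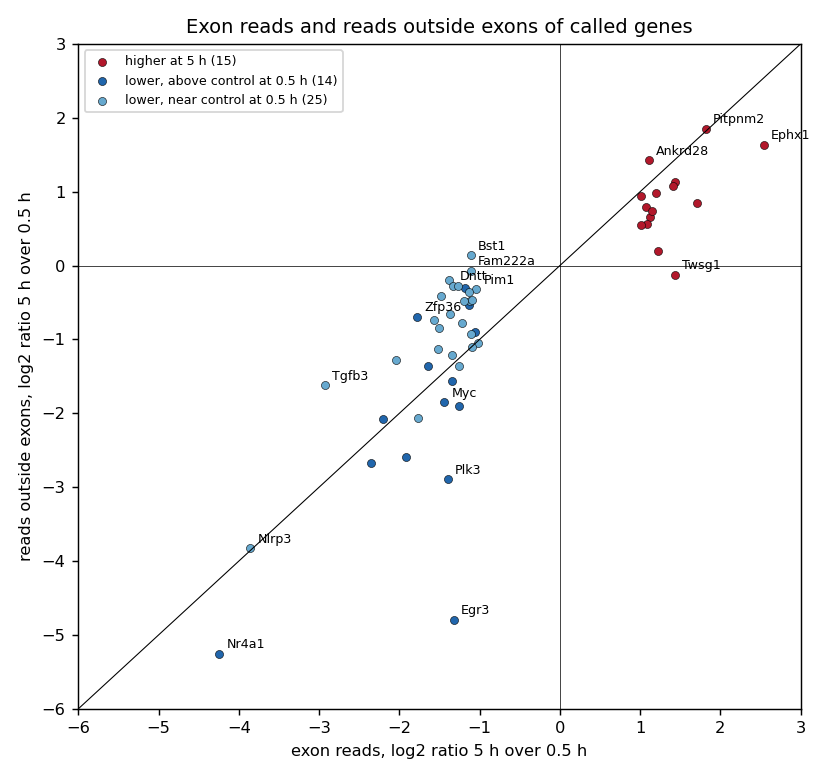
Points are the 54 called genes with at least 50 reads outside exons over both libraries; the x axis is the log2 ratio of 5 h over 0.5 h in exon reads and the y axis that of reads outside exons, with a diagonal of equal ratios. Most lower genes near control at 0.5 h (light blue) lie above the diagonal, Nr4a1, Egr3 and Plk3 lie below it, and Twsg1 is the red point below 0.

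Genes of ribosome biogenesis stood higher at 5 h as a group though none was called. All 31 measured members of that list were above 0, against 48.4% of all measured genes, and each had an interval above 1, against 29.5% of all measured genes. The median log2 ratio was 0.43 against -0.0096 over all measured genes. Utp20, of the small subunit processome, was 1.801-fold higher (1.71 to 1.89), Heatr1, of the same complex, 1.69-fold (1.61 to 1.77), Dkc1, the pseudouridine synthase of H/ACA particles, 1.61-fold (1.54 to 1.68), and Nolc1, a nucleolar phosphoprotein, 1.60-fold (1.54 to 1.65). At 1.5 h 15 of the 31 were above both times, among them Polr1b, a subunit of RNA polymerase I, with 28.0 CPM at 0.5 h, 70.0 CPM at 1.5 h and 42.6 CPM at 5 h, and the other 16 were between. Myc, a known activator of these genes, was lower at 5 h. Reads outside exons gave the list a median of 0.12 over 30 members, below the 0.17 of all tested genes. The palindrome CACGTG, an E-box that MYC can bind, stood in 17.6% of 34 promoter windows of the list and 27.8% of 18 windows of the called higher genes (Cdk6, Igf2bp3, Ppfia4, Pus7 and Tnfrsf19), against 7.15% of all windows. Among windows in the middle G and C range of each set it stood in 9.80% and 10.3%. Its share was 17.4% in the sterol list, which lay lower, 14.7% in the immediate early list and 10.7% in the lower genes above control at 0.5 h.

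Nucleotide and polyamine synthesis lay in the same direction, with 20 of 21 genes above 0, a median of 0.29 and 0 called. Srm, spermidine synthase, was 1.51-fold higher (1.42 to 1.60), Odc1, the first enzyme of polyamine synthesis, 1.38-fold (1.33 to 1.42), and Cad, which starts pyrimidine synthesis, 1.32-fold (1.28 to 1.37). In the heat shock list 11 of 15 genes were above 0 (median 0.16), while in reads outside exons 9 of 13 were below 0 (median -0.24). Among the 11 was Hspd1, a mitochondrial chaperone, at 1.55-fold (1.52 to 1.59). Sterol synthesis lay the other way, with 23 of 24 genes below 0, a median of -0.43 and 0 called. Hmgcs1, which makes HMG-CoA, went from 351 to 189 CPM, 1.86-fold lower (1.799 to 1.92). For 18 of the 24 the 1.5 h level was above both, and Hmgcs1 was then at 441 CPM. Reads outside exons gave the sterol list a median of -0.68 over 23 members. Glycolysis genes had a median of -0.08 and 0 called.

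**Figure D5:**
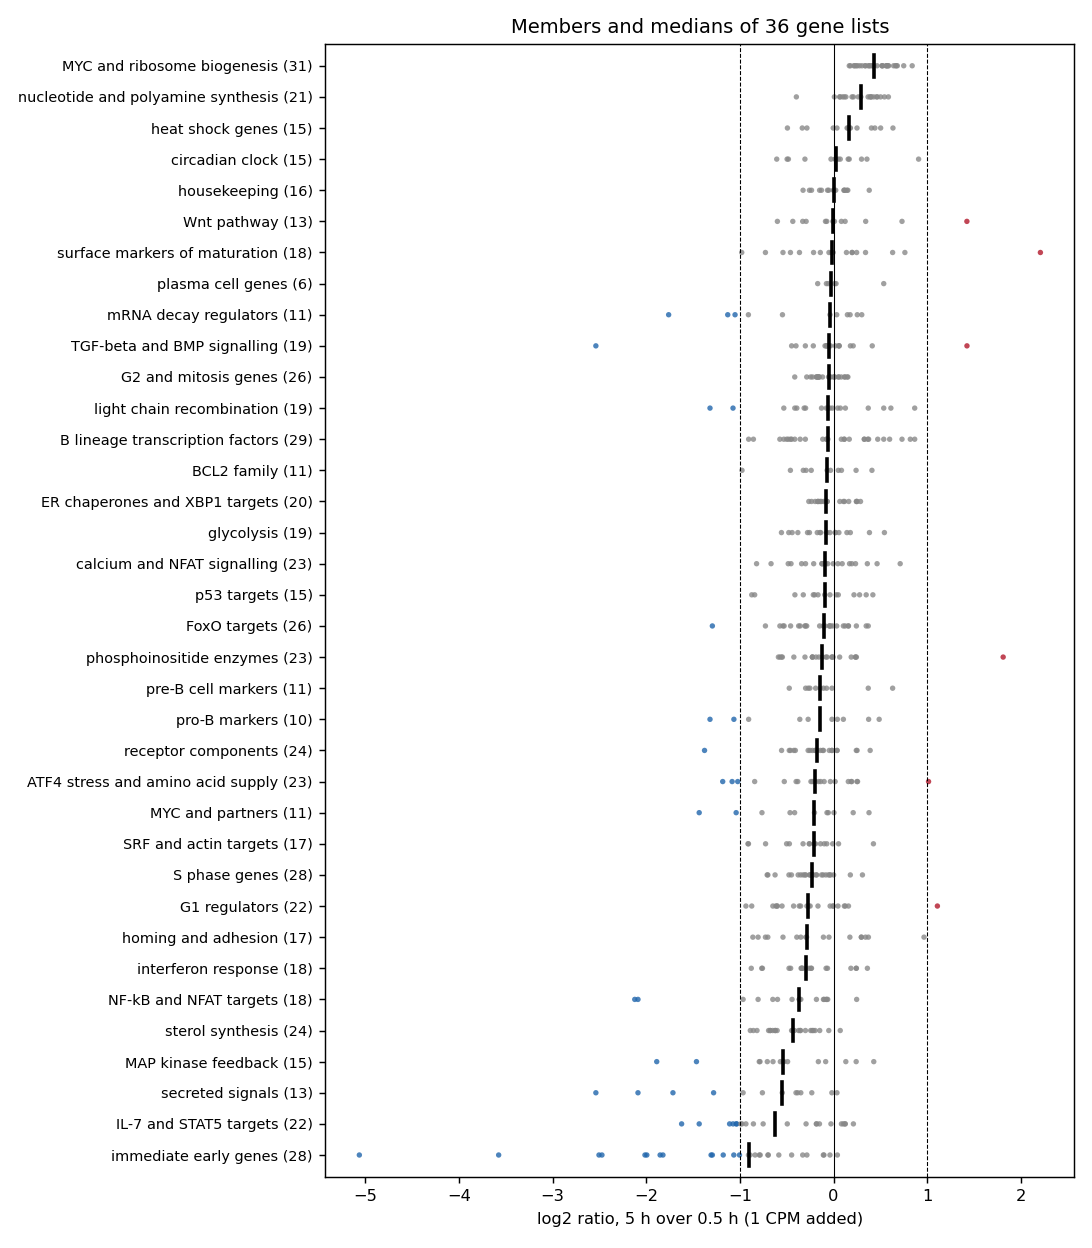
Rows are the 36 gene lists with at least 5 measured members, with that number in brackets; points are members at their log2 ratio of 5 h over 0.5 h (x axis), black bars are list medians, and dashed lines mark 2-fold. Points past 2-fold are red or blue, which includes Klf2, whose 1.77 CPM at 0.5 h is under the 5 CPM of the rule. The immediate early list has the lowest median (-0.90) and the ribosome biogenesis list the highest (0.43).

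Light chain recombination genes went both ways. Of 19 measured members 12 were below 0, 2 (Dntt and Spib) were called lower, 0 higher, and the median was -0.06, which became 0.03 in total gene reads. Over all genes 51.6% of those measured were below 0 and 0.651% of those tested were called lower. Irf4, a factor needed for light chain rearrangement, was at 239 CPM at 0.5 h, 445 CPM at 1.5 h and 347 CPM at 5 h, 1.45-fold higher (1.41 to 1.49). Ikzf3, the Ikaros-family factor Aiolos, went from 127 to 232 CPM, 1.83-fold higher (1.76 to 1.90), and Dclre1c, the hairpin-opening nuclease Artemis, was 1.54-fold higher (1.44 to 1.65). Rag1 was at 3.396 and 4.68 CPM and Rag2 at 7.59 and 5.98 CPM, with 8.49% and 19.0% of reads unique. B lineage transcription factors were divided, with 14 above 0, 15 below and 0 called of 29. Their median of -0.06 became 0.08 over members with at least 5 CPM and 0.03 in total gene reads. Hivep2, a zinc finger factor, was 1.77-fold higher (1.71 to 1.83), Foxo1 1.38-fold lower (1.32 to 1.44), and Pax5 1.05-fold lower (1.03 to 1.08). Among the 26 measured FoxO targets 0 were called, and the median was -0.10. For 17 of the 26 the 1.5 h level was below both times.

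The receptor itself was slightly lower in exon reads. Of 24 measured receptor components 19 were below 0, with a median of -0.18 and Bank1 the 1 called. Over all genes 51.6% of those measured were below 0 and 0.651% of those tested were called lower. In reads outside exons 16 of the 24 were above 0 and 8 below, with a median of 0.12, against 0.17 over all tested genes. Cd79a went from 1674 to 1206 CPM, 1.39-fold lower (1.37 to 1.41), and Cd79b was 1.19-fold lower (1.16 to 1.23), Ighm 1.14-fold lower (1.13 to 1.15) and Syk 1.13-fold lower (1.10 to 1.16). Igll1, a surrogate light chain gene, was 1.01-fold lower (0.999 to 1.03), an interval that includes 1. Surface markers of maturation had a median of -0.01 over 18 genes. Besides Pdcd1, Fcgr2b, an inhibitory Fc receptor, was 1.70-fold (1.63 to 1.77) and Cd24a 1.55-fold higher (1.51 to 1.59), while Cd69, an early activation marker, went from 54.3 to 27.0 CPM, 2.01-fold lower (1.85 to 2.18) and just outside the rule.

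G1 and S phase genes leaned lower in exon reads with few calls. Among 22 measured G1 regulators 17 were below 0 with a median of -0.27, and Cdk6 was the 1 called. Over all genes 51.6% of those measured were below 0 and 0.178% of those tested were called higher. Ccnd3, the cyclin of pre-B cell division, went from 685 to 358 CPM, 1.92-fold lower (1.87 to 1.96), and was still at 608 CPM at 1.5 h. So the 2 partners of 1 kinase complex, Cdk6 and Ccnd3, lay in opposite directions. Of 28 S phase genes 25 were below 0, with a median of -0.23 and 0 called. Rrm2, a subunit of ribonucleotide reductase, was 1.64-fold (1.59 to 1.69) and Uhrf1, which maintains DNA methylation, 1.63-fold lower (1.59 to 1.67). The list of G2 and mitosis genes had a median of -0.05 over 26 members and 0 calls. In reads outside exons 24 of its members were above 0 and 1 below, with a median of 0.31, against 0.17 over all tested genes. The G1 and S phase lists had medians of -0.07 and -0.08 in those reads.

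Stress genes divided as well. In the list of ATF4 stress and amino acid supply 3 genes were called lower and Slc1a5 higher, of 23 measured, with a median of -0.20. Over all genes 51.6% of those measured were below 0, and 0.651% of those tested were called lower and 0.178% higher. Ppp1r15a, a phosphatase subunit that restores translation, went from 50.3 to 21.6 CPM, 2.33-fold lower (2.13 to 2.55). Chac1, which degrades glutathione, was 2.32-fold lower (1.94 to 2.78). Trib3, a pseudokinase, was 2.14-fold lower (1.87 to 2.45), and its call (log2 ratio -1.02) was lost when lane 1 (-0.99) or lane 3 (-0.96) was left out. Atf4 itself was 1.17-fold lower (1.14 to 1.21). SRF and actin targets had a median of -0.21 with 15 of 17 below 0. Among them Actg1, a cytoplasmic actin, went from 898 to 476 CPM, but 1.11% of its reads were unique. Interferon response genes had a median of -0.29 over 18 members, and housekeeping genes a median of 0.0019 over 16, with 8 on each side.

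Markers of other cell types were low in both libraries, except for a few genes. Myeloid markers summed to 76.2 CPM at 0.5 h and 43.8 CPM at 5 h over the 11 of 12 found. Itgam, an integrin chain, made up most of that sum, with 66.3 and 35.9 CPM. The defining markers were low in both, with Lyz2 at 1.24 and 1.07 CPM, Csf1r at 0.118 and 0.163 CPM, and Ly6g at 0. Itgam lay in the same direction as Nlrp3, Tgfb3 and the integrin gene Itgax, and the part of myeloid markers in those results was not tested. Itgax was 2.53-fold lower (1.90 to 3.41), and its call (log2 ratio -1.03) was lost when lane 2 (-0.97) or lane 3 (-0.94) was left out. T and NK markers summed to 23.7 and 24.2 CPM, of which Klrb1c was 17.7 and 19.6 CPM, with Cd4, Trbc1 and Ncr1 at 0 in both. Erythroid and megakaryocyte markers summed to 14.8 and 13.2 CPM. Stromal markers summed to 135 and 168 CPM, nearly all from Pecam1 (134 and 167 CPM), with Col3a1, Cxcl12, Pdgfra and Thy1 at 0 in both.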

How the data were processed

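RNA-seq counts of the 16 samples (4 lanes of 4 libraries) were used as deposited by the authors: whole-number read counts per gene in exons and in the whole gene, total and uniquely placed, with no normalization, per the file headers. The deposited annotation columns hold other values (exon number, exon length and gene position). Basecalls used CASAVA 1.8.2 and the build was mm10, per the submitters' processing notes. Poly(A) selection and the HiSeq 2500 are given per the labels' protocols. No label or header names the aligner, the counter or the strand setting, so reads of overlapping or antisense genes cannot be told apart, and multi-mapped reads could be shared between copies.

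Lanes were summed per library after the sample of each column was taken from its name (0 columns unmatched), and total exon reads of 38918 features were scaled to CPM by the library total. The log2 ratio added 1 CPM to both sides. Ratios in the text are of CPM without that addition, with exact Clopper-Pearson 95% intervals from the split of the reads. Reads were not tied to single molecules by identifiers, so PCR copies count separately and intervals and floors cover counting error only. There was 1 library a side, so no p-value was computed. The call rule was run on simulated data for 5 h against 0.5 h (38918 features). Of 50 genes at each fold, 50 were called at 4-fold and at 0.25-fold, and 0 at 1.4-fold and at 0.7-fold. Intervals held the simulated fold for 43 to 49 of 50. The simulated counts had counting error only, with changed genes above the 5 CPM floor and folds away from 2-fold. The run therefore does not cover calls near either limit or the spread between cultures. Calls among its unchanged genes are not reported here. The control and 1.5 h libraries entered no call.

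Named genes are the 20 largest ratios in each direction among the called (predicted genes left out), up to 4 members of each list with the largest ratios, and a fixed set of genes. Genes outside that rule, such as Plk3, Pim1, Lyl1, Itgax, Fam222a, Gm8399 and members given for contrast, were named after their values were seen. The comparison, the lists and this rule were chosen with earlier results of these data known. Of the 757 list genes 748 matched a feature. Ebf1, Hivep3, Tob2 and Cr2, which are held as more than 1 feature each, entered no list, and 5 other symbols were not analysed here. Some members of the lists are not reported here by name. Promoter windows came from RefSeq (GRCm38.p6), and stretches printed overlap no exon of GENCODE vM21. Alternatives were TMM (edgeR 4.0.16) and DESeq2 1.42.0 size factors, pseudocounts, floors, fold limits, other read classes and leaving out each lane. Python 3.11.15, pandas 2.3.3, scipy 1.17.1 and R 4.3.3 were used.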

Additional observations from a re-analysis of the deposited data

Results flagged for a closer look

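The level of Egr1 in the 4 lanes of the 0.5 h library was picked out because 1 lane stood apart from the others: lane 1 was at 155 CPM, and the lowest lane at 152 CPM. Its gap to the nearest other lane, divided by the range of the 4 lanes, passed Dixon's critical value for 4 values. This was 1 flag among 24 groups of lanes checked, and chance flags about 1 in 20 groups. Leaving out lane 1 left the call of Egr1 in place.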

How the results depend on the processing

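The counts of called genes moved with the size limits. With 5 CPM added in place of 1 they were 11 higher and 27 lower. A floor of 20 CPM left 36 lower genes and 15 higher. At 1.5-fold there were 158 higher and 313 lower, and at 4-fold 2 and 9. Leaving out each lane number in turn gave 16 to 20 higher and 58 to 68 lower. TMM factors gave 18 and 57, DESeq2 size factors 17 and 62, unique exon reads 18 and 57 (15 and 54 of the called genes among them), and total gene reads 14 and 61 (9 and 52). Of the 79 called genes 25 (6 higher, 19 lower) stayed called under all 13 alternatives run for each gene, and 15 lost the call without some lane. No called gene changed direction under these alternatives. The medians of 5 lists, all within 0.061 of 0, changed sign under some alternative: the light chain and B lineage lists in total gene reads (-0.06 to 0.03 for both), the B lineage list over members with at least 5 CPM (0.08), the surface marker and Wnt lists under TMM factors (0.00059 and 0.0090) and without 1 lane (0.033 and 0.030), and the housekeeping list without lane 1 (-0.0025), in unique reads (-0.043) and in total gene reads (-0.022). No paired analysis was possible because the lanes are 1 library a side and their numbers name a lane, not a culture. Depth limits genes near 1 CPM, and no alternative stands in for a second culture.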
